A study of Drosophila melanogaster with 6 samples.

Results

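The tetraspanin genes of Drosophila melanogaster were followed in whole embryos in which the transcription factor Sage was made outside its normal site. Members were the genes whose symbol in the array annotation is Tsp followed by a digit and that have a probe set paired with that gene alone. This gave 32 of the 11982 genes measured, each with 1 probe set. Of these, 16 belong to the Tsp42E cluster on chromosome arm 2R and the other 16 lie elsewhere. Tsp42Eb and Tsp66A are not among the members, because their probe sets are also paired with further genes. The gene lbm (late bloomer) lies within the cluster under another symbol and is given beside the members without being counted.

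The Sage overexpression group held 3 samples of embryos that carry UAS-Sage under the tub-Gal4 driver, and the wild type group held 3 samples of the Oregon R strain. Oregon R is the genetic background given for both groups, embryos of both were aged at 25 C to stages 11 to 16, and both were passed through a COPAS sorter. Sage is a basic helix-loop-helix factor normally made in the salivary gland of the embryo. The tub-Gal4 driver switches on a UAS transgene in most cells. Wild type samples carried no driver or transgene per the labels, so an effect of the driver itself cannot be told apart from that of Sage. The labels do not say that replicates come from separate collections, and p-values then measure only the spread between these samples.

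Tetraspanins are small proteins that cross the membrane 4 times and have a large extracellular loop held by disulphide bonds. They gather other membrane proteins, such as integrins and metalloproteases, into patches of the plasma membrane and into late endosomes, lysosomes and exosomes. In flies Tsp2A is a component of the smooth septate junctions of gut and renal epithelia. Tsp3A, Tsp26A and Tsp86D assist the metalloprotease Kuzbanian in Notch signalling, Tsp42Ej (sunglasses) acts in lysosomal turnover of rhodopsin in photoreceptors, and lbm acts in motor neuron synapse formation. Many members of the Tsp42E cluster have less settled roles.

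Values are log2 RMA values, a scale on which 1 unit is a doubling, and each log2 fold change is the Sage overexpression mean minus the wild type mean. Signals of different probe sets were not compared as RNA levels. In RNA of whole embryos, fewer cells of a type and less RNA per cell cannot be told apart. The sage probe set read 12.17, 12.31 and 12.28 on the Sage arrays, against 7.68, 8.08 and 7.40 on the wild type arrays. Array medians lay between 5.44 and 5.52. Of the wild type arrays, array 2 moved the counts furthest: without it 856 genes rose, against 310 and 419 without wild type array 1 or 3. All 24 probe sets for polyA spike-ins had lower means on the Sage arrays (median difference -1.65 in log2), and the 3′ minus 5′ gap of the actin, GAPDH and eIF-4a controls was larger there by 1.29, 0.83 and 0.82. Labelling or RNA quality and genotype cannot be told apart in this design.

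Of the 5 tetraspanin genes that rose in the Sage embryos 4 lay in the Tsp42E cluster, and 0 of its 16 genes fell (limma, an adjusted p under 0.05 over all 11982 genes). The 4 were Tsp42Ec, Tsp42Eh, Tsp42El and Tsp42Ei, with rises between 1.60-fold and 3.46-fold. Outside the cluster 1 of 16 rose, Tsp29Fa (1.99-fold), and 1 of 16 fell, Tsp68C (1.35-fold). Over all genes 4.36% rose and 3.72% fell, so the 5 raised tetraspanins were 15.6% of the family and the 1 lowered gene was near the background share. The median log2 fold change was 0.42 in the cluster, 0.01 in the other tetraspanins and -0.01 over all genes. The difference between the cluster and the other tetraspanins was not tested, and these are counts over genes that share their arrays. Log2 fold changes were positive for 13 of 16 cluster genes and 9 of the other 16, where 48.9% of all genes had a positive one. At an unadjusted p under 0.05, 8 cluster genes were higher and 0 lower, and 3 of the others were higher and 4 lower, where 11.7% of all genes were higher and 12.8% lower.

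**Figure D1:**
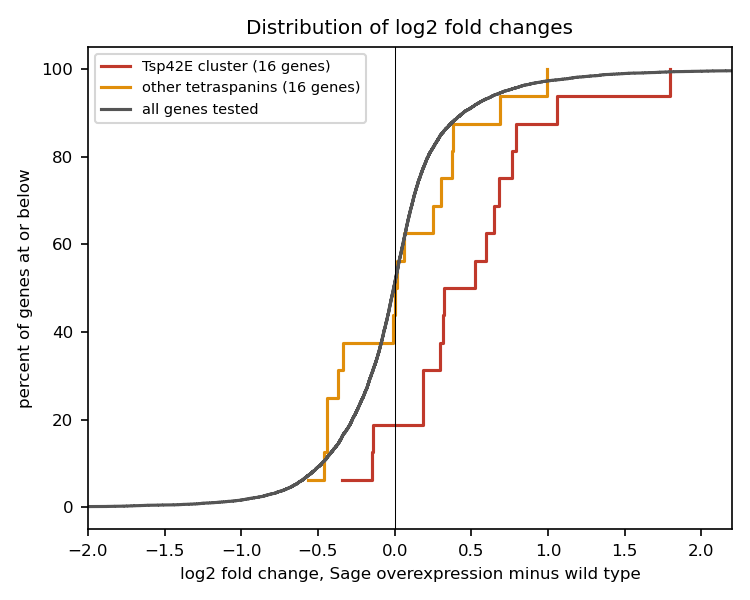
Cumulative share of genes (percent, vertical axis) at or below each log2 fold change, Sage overexpression minus wild type (horizontal axis, drawn between -2 and 2.2), for the 16 Tsp42E genes, the other 16 tetraspanins and all genes tested. The cluster's line lies to the right of the other lines over most of its course, with a median of 0.42 against 0.01 and -0.01.

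Tsp42Ec had the largest change of any tetraspanin. Its probe set read 8.08, 8.32 and 8.53 on the Sage arrays, against 6.46, 6.39 and 6.70 on the wild type arrays. Every Sage array lay at least a full unit above every wild type array, and the log2 fold change of 1.79 (SE 0.15, limma adjusted p 0.00167) exceeded that of 99.3% of all genes. The call was kept in each fit that left out 1 array, with adjusted p up to 0.0167.

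Tsp42Eh was the next largest in the cluster. It read 8.23, 8.29 and 8.17 in the Sage embryos, against 7.35, 7.09 and 7.09 in wild type. The groups were well separated and the Sage arrays nearly coincided, with means of 8.23 ± 0.06 in Sage overexpression and 7.18 ± 0.15 in wild type (SD, n = 3 each). The log2 fold change was 1.06 (SE 0.11, limma adjusted p 0.00386), and this call too was kept in every fit without 1 of the arrays (largest adjusted p 0.0296). Its probe set is of the kind marked _s_at, which can match transcripts of more than 1 gene.

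Tsp42El and Tsp42Ei changed less. Tsp42El read 9.92, 10.15 and 10.03 on the Sage arrays, against 9.02, 9.48 and 9.23 on the wild type arrays, a rise of 1.73-fold (limma adjusted p 0.0236). The lowest Sage array was above the highest wild type array. Tsp42Ei read 8.43, 8.54 and 8.57 in Sage overexpression, against 7.99, 7.83 and 7.67 in wild type, a rise of 1.60-fold (limma adjusted p 0.0193), again without overlap. Both calls depended on the arrays used. Tsp42El passed without wild type array 2 and missed the threshold without any other single array (adjusted p 0.0558 and 0.0582 without wild type 1 or 3, and 0.0706, 0.102 and 0.114 without Sage 1, 2 or 3). Tsp42Ei missed it without Sage array 1, 2 or 3 (adjusted p 0.0634, 0.084 and 0.106).

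**Figure D2:**
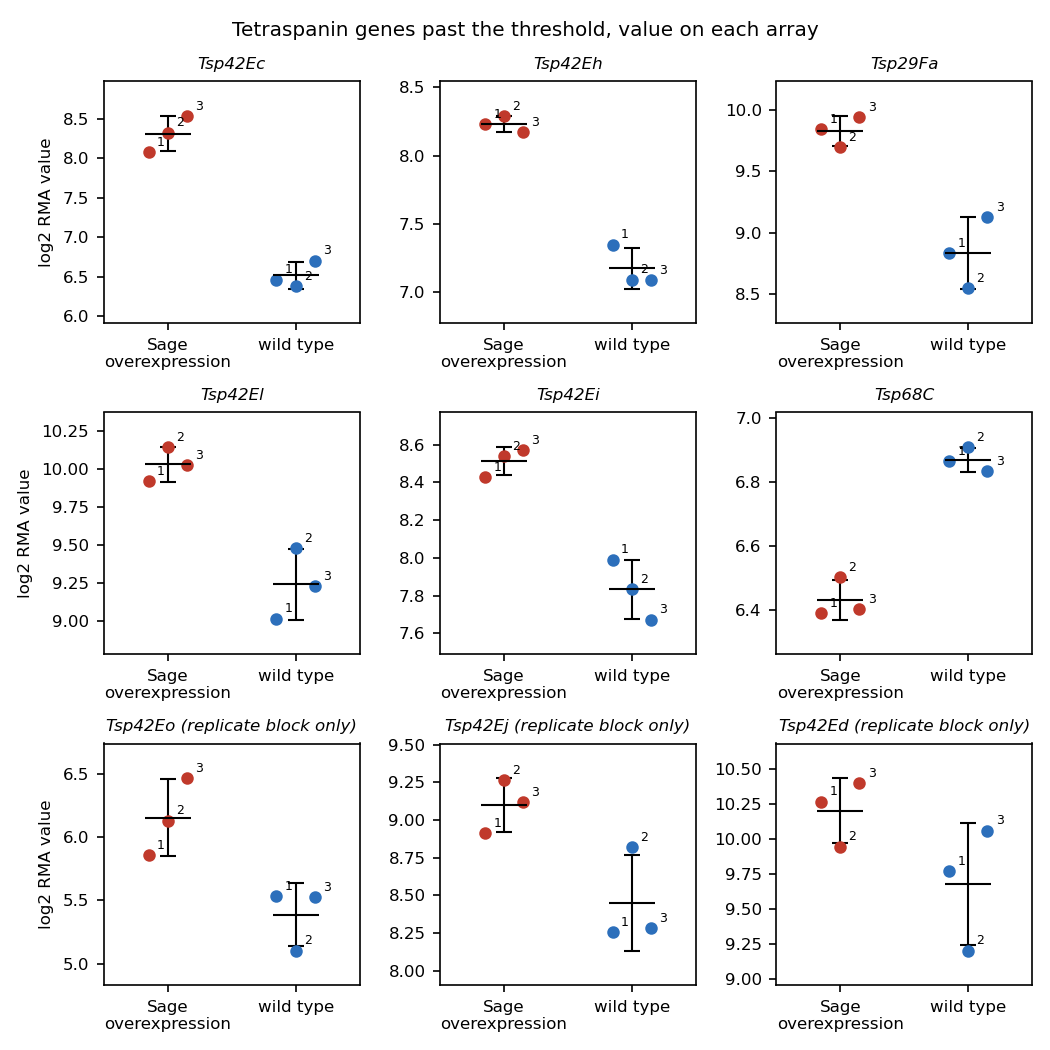
Log2 RMA values on each array (points, numbered by replicate) for the 6 tetraspanin genes past the threshold and 3 that passed only with the replicate number as a block, Sage overexpression left and wild type right in each panel. Horizontal bars are means and error bars SDs of 3 arrays, and each panel has its own axis range. In Tsp42Ec all Sage arrays are at or above 8.08 and all wild type arrays at or below 6.70, while in Tsp42Ed the groups overlap.

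A further group of cluster genes moved upward without passing in the fit without a replicate block. Tsp42Ej, the lysosomal tetraspanin of photoreceptors, read 8.91, 9.27 and 9.12 on the Sage arrays, against 8.26, 8.82 and 8.28 on the wild type arrays. The groups did not overlap, but wild type array 2 came close to the lowest Sage array. The log2 fold change was 0.65 (SE 0.18, limma adjusted p 0.0858). Without wild type array 2 it was 0.83 with an adjusted p of 0.0101, and it missed the threshold in the other 5 fits that left out 1 array (adjusted p up to 0.257). Tsp42Eo read 5.86, 6.13 and 6.47 in Sage overexpression, against 5.53, 5.11 and 5.53 in wild type (log2 fold change 0.76, limma adjusted p 0.0635). Its wild type mean of 5.39 was just above 5.35, the highest group mean of control probe sets without a fly target, whose values are called the control range here. Tsp42Ed read 10.27, 9.95 and 10.40 on the Sage arrays, against 9.77, 9.20 and 10.06 on the wild type arrays (log2 fold change 0.53, limma adjusted p 0.237). Here the groups overlapped, since Sage array 2 lay below wild type array 3.

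These 3 genes passed when the replicate number entered limma as a block, with adjusted p of 0.0242 for Tsp42Ej, 0.0345 for Tsp42Eo and 0.0412 for Tsp42Ed. The block raised the count in the cluster to 7 of 16, beside 1 raised and 1 lowered among the other tetraspanins. Over all genes it raised the background too, to 7.35% raised and 7.39% lowered. Tsp42Ee passed in neither fit: its log2 fold change was -0.34 (limma adjusted p 0.218), and -0.54 (adjusted p 0.0388) with both arrays numbered 2 left out.

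Among the remaining cluster genes Tsp42Eg read 7.59, 8.05 and 8.16 on the Sage arrays, against 7.44, 7.14 and 7.45 on the wild type arrays (limma adjusted p 0.0982). Tsp42Ep read 5.72, 5.72 and 5.74 in Sage overexpression, against 5.36, 5.45 and 5.49 in wild type (limma adjusted p 0.0986). The wild type mean of Tsp42Ep, 5.43, was just above the control range. Neither gene overlapped between groups. The others, Tsp42Ea, Tsp42Ef, Tsp42Ek, Tsp42En, Tsp42Eq and Tsp42Er, overlapped and had log2 fold changes between -0.15 and 0.32. Tsp42Ek lay within the control range in both groups, with means of 5.21 in Sage overexpression and 5.02 in wild type. Tsp42Ea and Tsp42Ee gave the highest signals of the family, 11.54 ± 0.13 and 11.76 ± 0.24 in Sage overexpression and 11.68 ± 0.27 and 12.10 ± 0.13 in wild type (SD, n = 3 each), and both had negative log2 fold changes. In all, the Sage arrays were all above the wild type arrays for 8 of 16 cluster genes and all below for 0, where 15.7% and 16.1% of all genes did so.

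Along the arm, genes that rose lay among genes that did not pass. Directly before Tsp42Ec lie Tsp42Eb and CG30160, which share a probe set that cannot be attributed to either. That probe set read higher on all Sage arrays, with a log2 fold change of 1.01 (limma adjusted p 0.0199 over all fly probe sets). Before these, Tsp42Ea had a log2 fold change of -0.14, and after Tsp42Ec, Tsp42Ed and Tsp42Ee had 0.53 and -0.34. Tsp42Eg, Tsp42Eh, Tsp42Ei and Tsp42Ej follow one another among the measured genes, and in each of these 4 all Sage arrays were above all wild type arrays. Next to Tsp42El, lbm read 9.63, 9.99 and 9.76 on the Sage arrays, against 9.80, 10.21 and 9.71 on the wild type arrays, a log2 fold change of -0.11 (limma adjusted p 0.751). Its groups overlapped.

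Genes of other families in and around the cluster gave a mixed picture as well. Pgant3, a glycosyltransferase that starts O-linked sugar chains and lies between Tsp42Eo and Tsp42Eq, read 10.69, 10.66 and 10.66 on the Sage arrays, against 9.75, 9.77 and 10.30 on the wild type arrays. It rose 1.66-fold (limma adjusted p 0.0445), a call that ended on leaving out wild type array 1, with an adjusted p of 0.114, on leaving out Sage array 1, 2 or 3 (0.143, 0.142 and 0.169), after median centring (0.0518), without genes below the median level (0.0514) and without both arrays numbered 2 (0.0878). CG30159, within the span of Tsp42Ea, had a log2 fold change of 0.06. On the flank before Tsp42Ea, CG30156 rose 1.47-fold (limma adjusted p 0.0411, kept only without wild type array 2 when 1 array was left out, and otherwise up to 0.137). There vimar and CG17002 had log2 fold changes of 0.49 (limma adjusted p 0.0811) and -0.06, and on the flank after Tsp42Er, CG12836, CG12831 and esn had values between -0.24 and -0.02. The annotated spans of Tsp42Ej and Tsp42Ek overlap, as do those of Tsp42Ep and Tsp42Eo, of Tsp42Ea and Tsp42Eb, and of Tsp42Ei and CG33914. Several tetraspanins outside the cluster overlap other genes too, among them Tsp29Fa with asRNA:CR46071. Where each probe set lies in these spans was not analysed here.

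**Figure D3:**
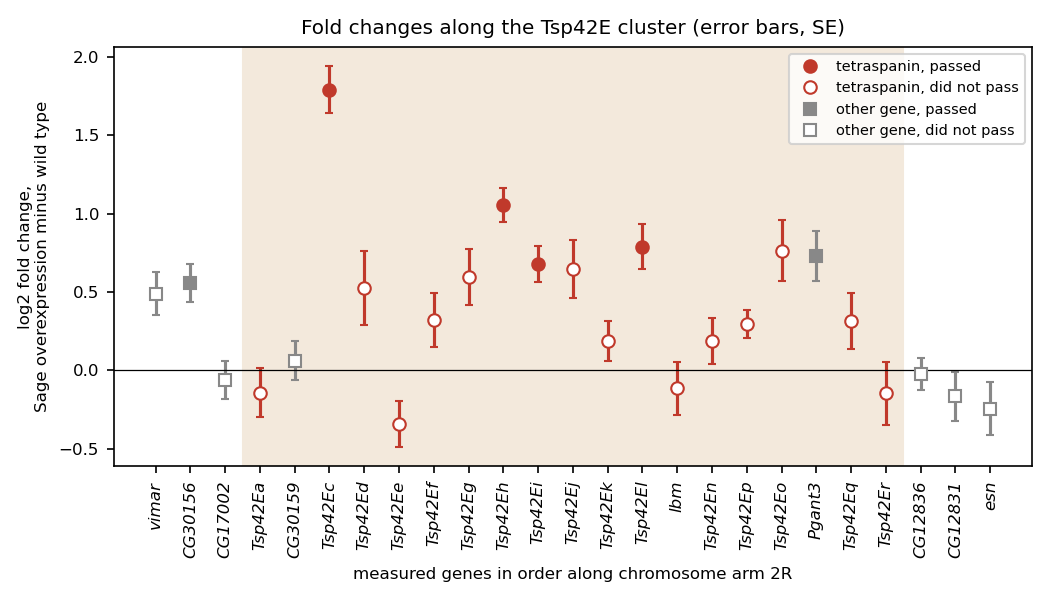
Log2 fold changes, Sage overexpression minus wild type (vertical axis, error bars SE), of the measured genes in and beside the Tsp42E cluster in their order along chromosome arm 2R (horizontal axis, not to scale). Shading marks the cluster, circles are tetraspanins including lbm, squares are other genes, and filled symbols passed the threshold. The probe set shared by Tsp42Eb and CG30160 is not drawn. Tsp42Ec (1.79) and Tsp42Eh (1.06) stand highest among the genes drawn, and Tsp42Ee (-0.34) lies between them.

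Outside the cluster Tsp29Fa was the one tetraspanin that rose. It read 9.85, 9.69 and 9.94 on the Sage arrays, against 8.83, 8.54 and 9.13 on the wild type arrays. The groups lay more than 0.5 apart at their nearest values, and the log2 fold change was 0.99 (SE 0.16, limma adjusted p 0.0183). The call was kept only without wild type array 2 or 3. Leaving out wild type array 1 ended it (adjusted p 0.0551), as did leaving out Sage array 1, 2 or 3 (adjusted p 0.0761, 0.0651 and 0.1). Its neighbour on chromosome arm 2L, Tsp29Fb, read 10.08, 10.08 and 10.25 in Sage overexpression, against 9.74, 9.54 and 9.99 in wild type (log2 fold change 0.38, limma adjusted p 0.154). These groups did not overlap either.

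Tsp68C was the one tetraspanin that fell. It read 6.39, 6.50 and 6.40 on the Sage arrays, against 6.87, 6.91 and 6.83 on the wild type arrays, with a log2 fold change of -0.44 (SE 0.09, limma adjusted p 0.0347). Every Sage array was below every wild type array and the spread in both groups was small. The call was kept only without wild type array 2. It ended on leaving out wild type array 1 or 3 (adjusted p 0.0888 and 0.0692) or Sage array 1, 2 or 3 (adjusted p 0.128, 0.0887 and 0.161), after quantile normalization (adjusted p 0.0745) and with the trend and robust settings of eBayes (adjusted p 0.0923).

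The 3 tetraspanins that assist Kuzbanian all had negative log2 fold changes, and none passed. Tsp3A read 6.86, 7.03 and 6.92 in Sage overexpression, against 7.18, 7.83 and 7.18 in wild type (limma adjusted p 0.202). Tsp86D read 7.58, 7.71 and 7.48 in Sage overexpression, against 7.84, 8.58 and 7.66 in wild type (limma adjusted p 0.328). Wild type array 2 was the highest in both. Without it the log2 fold change of Tsp3A was -0.25 instead of -0.46, and that of Tsp86D was -0.16 instead of -0.44. The groups of Tsp3A did not overlap with or without this array, and those of Tsp86D overlapped in both cases. Tsp26A lay within the control range in both groups, at 4.37 ± 0.08 in Sage overexpression and 4.71 ± 0.09 in wild type (SD, n = 3 each, limma adjusted p 0.0925).

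Tsp2A, the smooth septate junction protein, read 10.21, 10.41 and 10.49 on the Sage arrays, against 10.00, 10.25 and 10.12 on the wild type arrays. The groups overlapped and the log2 fold change was 0.25 (SE 0.12, limma adjusted p 0.27). Tsp39D had the lowest log2 fold change of the family, -0.57, and read 7.34, 7.79 and 7.53 in Sage overexpression, against 8.40, 8.13 and 7.83 in wild type (limma adjusted p 0.12). Its highest Sage array was just below its lowest wild type array. Tsp97E read 10.03, 9.97 and 9.86 in Sage overexpression, against 10.28, 10.05 and 10.62 in wild type (limma adjusted p 0.216), again without overlap. Tsp66E read 9.71, 10.01 and 9.85 on the Sage arrays, against 9.50, 8.70 and 9.32 on the wild type arrays (log2 fold change 0.69, limma adjusted p 0.112).

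Tsp5D, Tsp47F, Tsp33B and Tsp42A had log2 fold changes between -0.01 and 0.06, and their groups overlapped. Tsp33B read 4.09, 4.42 and 4.03 in Sage overexpression, against 4.0, 4.35 and 4.22 in wild type, and Tsp42A read 3.68, 3.64 and 3.63 in Sage overexpression, against 3.60, 3.75 and 3.58 in wild type. Both were within the control range in both groups, so a low level of either could not be measured. Of the 16 tetraspanins outside the cluster, 3 had every Sage array above every wild type array and 5 had every Sage array below, beside the 15.7% and 16.1% of all genes that did so.

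Wild type array 2 set the spread of several members. On it 8 of the 32 genes lay more than 0.5 from the mean of wild type arrays 1 and 3. The genes Tsp74F, Tsp96F, Tsp66E and Tsp42Ed were lower there, and Tsp86D, Tsp3A, Tsp47F and Tsp42Ej were higher. Tsp74F lay furthest, reading 9.29, 8.36 and 9.74 on the wild type arrays, a distance of -1.16, and its log2 fold change was 0.38 with this array and -0.01 without it. Tsp96F lay 0.84 below the other wild type arrays, and its log2 fold change was 0.31 with the array and 0.02 without it. For Tsp42Ed and Tsp66E the log2 fold changes without it were 0.29 and 0.45. On Sage array 2, 0 of 32 genes lay more than 0.5 from the mean of Sage arrays 1 and 3. Neither this count nor that on wild type array 2 was made over all genes. Whether tetraspanins differ from other genes in this was not tested. Without wild type array 2, 6 tetraspanins were raised and 1 lowered, where 7.14% of all genes were raised and 6.61% lowered. Without both arrays numbered 2 the counts were 6 and 2, where 719 of all genes (6%) were raised and 590 (4.92%) lowered.

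**Figure D4:**
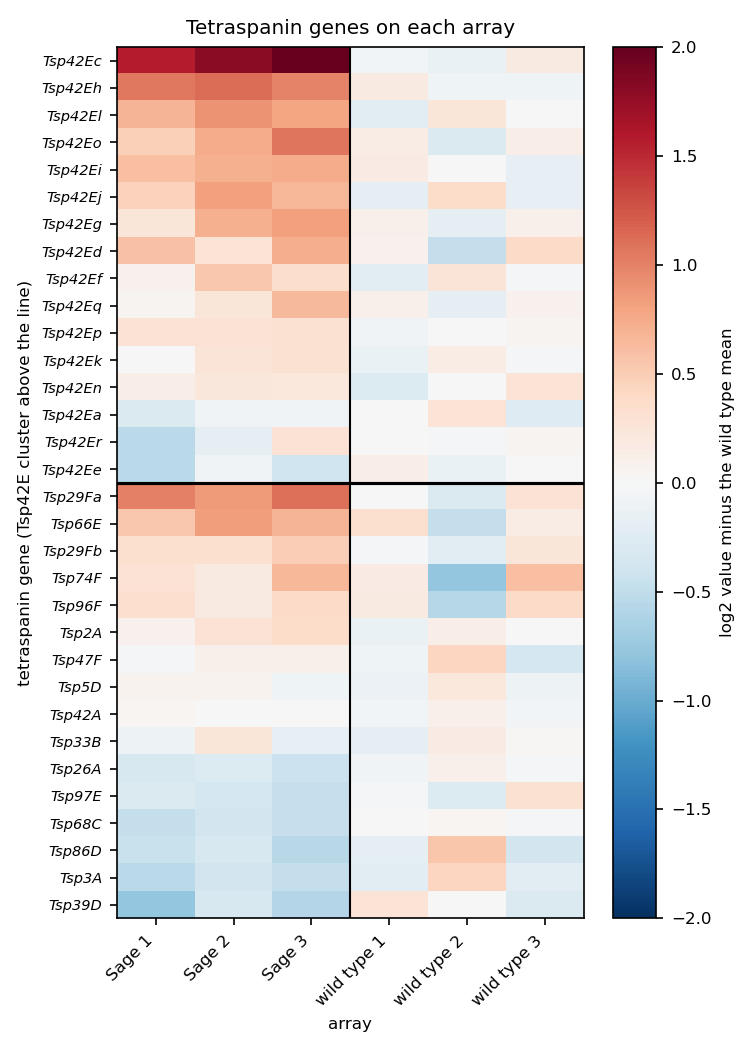
Log2 value minus the gene's wild type mean (colour, clipped at -2 and 2) for the 32 tetraspanin genes (rows, Tsp42E cluster above the line, ordered by log2 fold change) on the Sage arrays (left columns) and wild type arrays (right columns). The upper rows of the cluster are high on all 3 Sage arrays, and wild type array 2 departs from the other wild type arrays in Tsp74F, Tsp96F and Tsp86D.

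Lists of genes whose products work with tetraspanins were counted in the same fit. Of 14 measured genes for integrins and their adaptors, the adhesion receptors that tetraspanins bind in the membrane, 2 rose and 0 fell, with a median log2 fold change of -0.01. The alpha integrin gene scb read 8.63, 9.23 and 9.11 on the Sage arrays, against 6.43, 6.51 and 6.47 on the wild type arrays, and rose 5.74-fold (limma adjusted p 6.86e-04). The groups lay more than 2 units apart. Another alpha integrin gene, if (inflated), rose 1.94-fold (limma adjusted p 0.00475). Both calls were kept in each fit that left out 1 array.

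Of 12 measured genes of late endosome and exosome trafficking 1 rose and 0 fell (median 0.03). It was Ykt6, a SNARE protein of membrane fusion, which read 9.52, 9.43 and 9.43 in Sage overexpression, against 8.21, 8.24 and 8.09 in wild type, a 2.43-fold rise (limma adjusted p 9.1e-04). Of 13 genes of pleated septate junctions 0 rose and 1 fell, nrv2, a sodium pump subunit, with a log2 fold change of -1.28 (limma adjusted p 0.00912). Without Sage array 3 its adjusted p was 0.0573. With the replicate block 1 gene of this list rose and 2 fell. Of 6 genes of smooth septate junctions 0 passed in limma, with 1 gene higher and 0 genes lower at unadjusted p-values under 0.05. The smallest p was that of mesh, the membrane partner of Tsp2A, with a log2 fold change of 0.51 (limma adjusted p 0.111, and 0.0452 with the replicate block). Taken as the mean of the probe sets of mesh, the log2 fold change was 0.31 (limma adjusted p 0.104).

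Of 6 measured genes for Kuzbanian and Notch processing 0 passed in limma (median -0.01). At unadjusted limma p-values under 0.05, 1 gene was higher, Kul, and 0 genes were lower. Kul lay within the control range in both groups, with means of 5.13 in Sage overexpression and 4.88 in wild type. The other 6 of the 12 listed genes, Notch and Delta among them, had no probe set paired with them alone in the annotation, which leaves some probe sets unnamed. kuz itself had a log2 fold change of -0.17 (limma adjusted p 0.572). Of 5 genes of rhodopsin turnover in photoreceptors 1 rose, Arr1, an arrestin, 1.71-fold (limma adjusted p 0.00788), with means of 5.98 in Sage overexpression and 5.20 in wild type, the wild type mean being within the control range. Leaving out Sage array 3 ended the call of Arr1 (adjusted p 0.0573), and with the replicate block 1 gene of the list rose and 1 fell. The counts of all these partner lists stand beside 4.36% raised and 3.72% lowered over all genes, or 7.35% and 7.39% with the replicate block. At an unadjusted limma p under 0.05, 11.7% of all genes were higher and 12.8% lower.

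Marker genes of several cell types differed between the groups as well, and their counts stand beside 4.36% raised and 3.72% lowered over all genes (7.35% and 7.39% with the replicate block). The salivary gland list holds sage itself, whose rise the transgene fixes. Without it, salivary gland markers rose in 4 of 6 cases and summed, as linear signals, to 6889 to 8000 on the Sage arrays and 3296 to 4016 on the wild type arrays. The gland markers that did not pass, fkh and pip, had log2 fold changes of 0.03 and 0.35 (limma adjusted p 0.937 and 0.376). Epidermal and cuticle markers rose in 3 of 5 cases, with sums of 10835 to 12821 on the Sage arrays and 2393 to 4496 on the wild type arrays. TwdlT and Cpr66D, with Sage means of 12.6 and 12.2, made up most of the Sage sums. The marker grh had a log2 fold change of -0.07 (limma adjusted p 0.842), and ple was in the control range in both groups. Blood cell markers rose in 3 of 7 cases, namely Pxn, PPO1 and PPO2, with sums of 6310 to 6644 on the Sage arrays and 3805 to 4010 on the wild type arrays. Hml, He and NimC1 were in the control range in both groups. The remaining marker, srp, was above that range and had a log2 fold change of -0.26 (limma adjusted p 0.671). Of 6 glial markers 1 rose and 1 fell, or 2 and 2 with the replicate block, and of 6 midgut markers 1 rose and 1 fell. Of 5 neuronal markers 0 passed in limma, with 0 at unadjusted p-values under 0.05. Of 3 tracheal markers 1 rose, serp. Leaving out 1 array kept the calls of serp, PH4alphaSG2 (salivary gland) and alrm (glia) in 1 of 6 fits each. That of Cpr66D was kept in 3, and all other marker calls in 5 or 6. Of 3 germ line markers 1 fell, aub, and the others, vas and osk, were in the control range in both groups. Somatic muscle had 1 measured marker, which did not pass. The part of these cell types in the tetraspanin values was not tested.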

How the data were processed

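Each of 6 Affymetrix arrays measured 1 sample, 3 per group. Per the submitters' processing notes the deposited values were made with RMA and Partek, versions not given, and were taken as log2 values from their range. Background correction and slide effects were not analysed here. The 183 control probe sets were kept out of the tests. Of 18769 fly probe sets 13647 are paired with 1 gene and 402 with several in the platform annotation, and the rest are unnamed. Symbols were updated by Entrez number through a table of the Release 6 assembly (13544 of 13647 matched), and its gene order was used without coordinates. For a gene with several probe sets, the one with the highest mean on the 6 arrays was used, which gave 11982 genes, with no filter on low values.

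Groups were compared with limma 3.58.1 in R 4.3.3 (lmFit, eBayes, two-sided, Benjamini-Hochberg over all genes, threshold 0.05). The range of 70 control probe sets taken to have no fly target (group means 3.23 to 5.35) marks background. The number of arrays limits the precision. In a simulation on 11982 genes, 4%, 74%, 100% and 100% of genes changed by 0.5, 1, 2 and 4 on the log2 scale were recovered, 50 of each size. The other genes were left unchanged, and values were drawn independently, without the deviations that same-numbered arrays share. It gave 146 calls, against 969 raised or lowered genes in the data, so these shares are not the recovery in the data.

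Same-numbered samples, by the numbers in the titles, deviated together from their group means (correlations of 0.39, 0.67 and 0.33), so the numbers were treated as pairs in an alternative fit with the replicate block. Sage 1 with wild type 3 gave 0.43 and Sage 3 with wild type 1 gave 0.26, so these correlations do not set the pairing of arrays 1 and 3.

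The members, gene lists, tests and the rule for named genes were chosen with earlier results of these data known. The rule gives every member, with values per array for those past the threshold with or without the block, those with the highest and lowest signals and those with the largest changes, and of each list up to 4 genes past the threshold or the one with the smallest p. For further members, neighbouring genes, kuz and cell type markers that did not pass, values were added after they were seen. The listed gene sun was left out because that symbol now belongs to a gene that is no tetraspanin. Likeness of genes to each raised or lowered member was taken over the 6 arrays after removing the group means. The genes most alike are not named, since 29 to 284 genes per member correlated above 0.95. Promoter and protein sequences were not used here. Matplotlib 3.10.9 and pandas 2.3.3 under Python 3.11.15 drew the figures.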

Additional observations from a re-analysis of the deposited data

Results flagged for a closer look

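One probe set of the Tsp42E region is paired with 2 genes, Tsp42Eb and CG30160, and was therefore outside the gene table and attributed to neither. It read 7.44, 7.62 and 7.94 on the Sage arrays, against 6.57, 6.51 and 6.89 on the wild type arrays. All Sage arrays were above all wild type arrays, with a log2 fold change of 1.01 (limma adjusted p 0.0199 over all 18769 fly probe sets).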

How the results depend on the processing

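Leaving out genes below the median level moved the medians but not the count of raised tetraspanins. Otherwise the counts depended on the setting more than the medians did, and the cause was not tested. Against 523 raised and 446 lowered genes in the whole table, 881 and 886 passed with the replicate block, 2010 and 2049 with array weights, 262 and 240 of 5991 genes after leaving out genes below the median level, and 206 and 86 at an adjusted p of 0.01. Of all tetraspanins, 8 rose with the replicate block, 16 rose and 6 fell with array weights, and 2 rose and 0 fell at 0.01. In the cluster 7 rose with the block, 12 rose and 1 fell with array weights, and 2 rose at 0.01. Among the other tetraspanins 4 rose and 5 fell with array weights, and 0 rose and 0 fell at 0.01. The 1 lowered tetraspanin became 0 after quantile normalization and after leaving out dim genes, and 2 without both arrays numbered 2, a choice made after seeing the data, 1 of them, Tsp42Ee, in the cluster. With the trend and robust settings 1 tetraspanin fell, but it was Tsp26A (adjusted p 0.0474) and not Tsp68C. Leaving out 1 array gave 199 to 856 raised and 75 to 792 lowered genes, 2 to 6 raised and 0 to 1 lowered tetraspanins, 2 to 5 raised and 0 lowered in the cluster, and 0 to 1 raised and 0 to 1 lowered outside it. The median log2 fold change of the cluster was 0.37 to 0.47 in these fits, and 0.59 over the 11 members left without dim genes. That of the other tetraspanins was -0.03 to 0.05, and 0.25 over 11 members. The polyA median was -1.96 to -1.39 in these fits. Tsp42Ec and Tsp42Eh passed in each setting, the threshold of 0.01 included. No call of a tetraspanin changed direction. The block changed no tetraspanin call other than those of Tsp42Ed, Tsp42Ej and Tsp42Eo.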
